A study of Homo sapiens with 12 samples.

Results

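The 10 globin genes of the human alpha- and beta-globin clusters were examined in K562 cells, out of 60609 genes listed in the count files. They were taken by name, by matching Ensembl identifiers to GENCODE symbols: HBZ, HBM, HBA2, HBA1 and HBQ1 of the alpha cluster on chromosome 16, and HBE1, HBG2, HBG1, HBD and HBB of the beta cluster on chromosome 11. K562 is an established cell line derived from the blast crisis of a chronic myeloid leukemia, which carries BCR-ABL1. The study asked how inhibition of the deubiquitinase USP7 changes gene expression, and RNA-seq was performed on 3 DMSO-treated cultures and on 3 cultures treated with 10 μM of FT671, a small-molecule USP7 inhibitor, for 48 h. All 6 libraries came from the same parental line, and DMSO was the solvent control. The libraries held between 4555220 and 14250500 counts on genes. A floor of 3 counts corresponded to 0.208 CPM (the count relative to the library total, scaled between libraries by TMM and in parts per 1000000) in the deepest library and 0.666 CPM in the shallowest, and such floors and counting intervals cover counting error only.

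Hemoglobin is a tetramer of a pair of alpha-like and a pair of beta-like chains, each of which carries a heme. The genes lie in each cluster roughly in the order of their use in development: zeta (HBZ) and epsilon (HBE1) globin are made in the embryonic yolk sac, gamma globin (HBG1 and HBG2) in the fetus, and alpha (HBA1 and HBA2), beta (HBB) and delta globin (HBD) in the adult. Theta (HBQ1) and mu globin (HBM) are minor alpha-like genes whose protein products have not been assigned a function in hemoglobin. K562 cells have long been used as a model of embryonic and fetal globin expression, since they can be induced to make hemoglobin.

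The embryonic gene HBZ and the fetal genes HBG1 and HBG2 held most of the globin counts and were 2.3 to 3.5 times higher in FT671-treated cells. HBZ increased from 39.0 ± 5.64 to 136.9 ± 9.67 CPM (mean ± SD, n = 3 in each group), HBG1 from 36.9 ± 2.84 to 99.0 ± 3.95 CPM and HBG2 from 28.2 ± 2.85 to 66.9 ± 15.4 CPM. HBD, HBA1 and HBA2 were low in both groups and also increased, HBQ1 had the smallest log2 fold change of those tested, and HBB was not detected. The filter on low counts left 7 of the 10 genes, and all 7 were higher in FT671 at an adjusted p of 0.05 by edgeR's quasi-likelihood test, against 23.6% of all 13895 genes tested. HBD and HBA2 passed the filter only through the FT671 libraries, so this count cannot be read as a share of the 10 genes. At an adjusted p of 1e-05, HBZ and HBG1 were called higher, as were 1.79% of all genes. By edgeR 0 of the 7 genes were lower, adjusted or unadjusted, and 0 by DESeq2, against 26.5% of all genes by edgeR. In 6 of the 7 genes the groups did not overlap in CPM, with FT671 higher, as in 26.8% of all genes tested, and HBQ1 was the exception. The p-values measure the spread between these cultures, and in bulk RNA a larger number of expressing cells and more RNA per cell cannot be told apart.

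**Figure D1:**
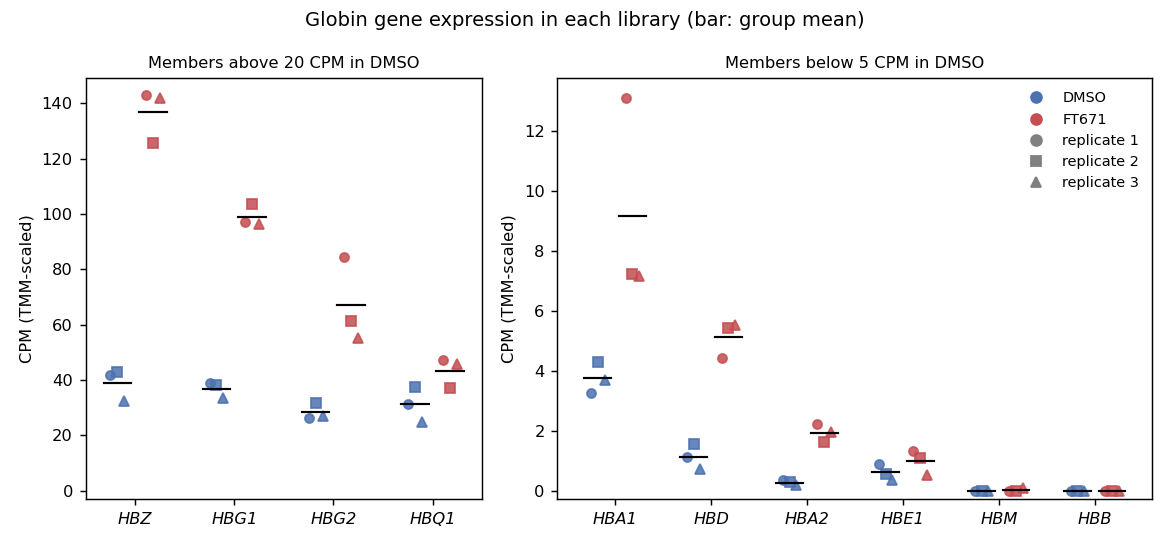
CPM (TMM-scaled) of each globin gene in each library, with the genes above 20 CPM in DMSO on the left axis and the others on the right axis; points are libraries (shape gives the replicate number) and bars are group means. HBZ, HBG1, HBG2, HBA1, HBD and HBA2 are separated between DMSO and FT671, HBQ1 and HBE1 overlap, and HBM and HBB lie at or near 0.

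How much of each transcript could be counted differed widely between the genes, and this bears on every level below. STAR's gene counting leaves out reads that map to several places and reads that fall on exons of more than 1 gene. In GENCODE 44, 90.0% of the 961 exonic bases of HBE1 are shared with another listed gene, 781 of them with the protein-coding gene ENSG00000239920. None of the 50-base exonic windows of HBE1 could therefore be assigned to it alone. HBA1 and HBA2 share no exon with another listed gene, but are so alike that only 23.1% and 22.2% of their windows were unique in both clusters. For HBG1 and HBG2, 44.3% and 42.5% of windows were unique and not shared. ENSG00000284931 covers 431 of the 841 exonic bases of HBG2 and 218 of the 1467 of HBG1 and had 0 counts in all 6 libraries. HBG2 kept 373 unshared bases, of which 218 lie in an upstream exon of a long transcript that starts near HBE1's own distal exon and 155 in its last exon. The corresponding share was 61.0% for HBZ, which shares an exon of 205 bases with HBM, and 53.2% for HBM. It was 88.1% for HBD, 98.0% for HBB, and all windows of HBQ1 could be assigned. The annotation release that the authors counted on is not given in the sources used here, and 49338 of the listed identifiers carry the version of release 44, so their gene models may differ in detail.

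In the alpha cluster, HBZ (ENSG00000130656, hg38 chr16:142728-154503, plus strand), the embryonic alpha-like chain, had 603, 467 and 176 counts in DMSO, with values given here and below in the order of the replicate numbers, and 644, 697 and 1588 counts in FT671. These were 41.8, 42.8 and 32.5 CPM in DMSO and 143.0, 125.8 and 141.9 CPM in FT671. Every FT671 library was well above every DMSO library. The log2 fold change was 1.79 (SE 0.10, edgeR adjusted p = 2.77e-08), and 0.662% of tested genes had a larger rise. Under the alternative settings it ranged from 1.68 to 1.88.

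HBA1 (ENSG00000206172, chr16:176680-177522, plus strand) and HBA2 (ENSG00000188536, chr16:172876-173710, plus strand) encode the same adult alpha chain, and their reads are hard to tell apart, so each single value is uncertain. HBA1 was at 3.25, 4.31 and 3.70 CPM in DMSO and at 13.1, 7.22 and 7.15 CPM in FT671. FT671 replicate 1 was the highest by far, and the other FT671 libraries still lay above all DMSO libraries. Its log2 fold change was 1.23 (SE 0.25, edgeR adjusted p = 0.0011), and 0.946 (edgeR adjusted p up to 0.00846 over the alternatives) when FT671 replicate 1 was left out. HBA2 had 5, 3 and 1 counts in DMSO and 10, 9 and 22 in FT671, which were 0.346, 0.275 and 0.185 CPM against 2.22, 1.62 and 1.97 CPM. All DMSO values of HBA2 were close to or under the floor of 3 counts. The fitted log2 fold change was 2.67 (SE 0.41, edgeR adjusted p = 1.24e-04), with a ratio of summed counts of 6.6 (95% counting interval 3.16 to 15.4). Summed, the HBA1 and HBA2 reads increased with a log2 fold change of 1.41 (SE 0.23, edgeR adjusted p = 1.87e-04). HBA1 gave 90.4%, 94.0% and 95.2% of the reads of this pair in DMSO and 85.5%, 81.6% and 78.4% in FT671. The groups did not overlap, and the exact two-sided permutation test gave p = 0.1, the smallest that 3 libraries against 3 allow (adjusted p = 0.2 over the 10 balances tested).

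HBQ1 (ENSG00000086506, chr16:180459-181179, plus strand), theta globin, is the 1 globin gene whose exonic windows could all be assigned. It was at 31.4, 37.6 and 25.0 CPM in DMSO and at 47.1, 37.0 and 45.9 CPM in FT671. FT671 replicate 2 lay below DMSO replicate 2, so the groups overlapped. The log2 fold change was 0.45 (SE 0.14, edgeR adjusted p = 0.015), and 18.4% of tested genes had a larger rise. The call was lost without FT671 replicate 1 (log2 fold change 0.40, edgeR adjusted p = 0.0557) and without FT671 replicate 3 (0.40, edgeR adjusted p = 0.0789).

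HBM (ENSG00000206177, chr16:153892-166764, plus strand), mu globin, had 1 count in FT671 replicate 3 and 0 counts in the other 5 libraries, under the floor of 3 counts in each. Its promoter is shown because HBM was not detectable at this depth although it lies between HBZ and HBA2, whose reads increased. The window spans 250 bases before and 50 bases after the start of transcription in RefSeq (GRCh38.p14, chr16:165728-166027, plus strand). Capitals mark the letters GATAA, the core of the motif bound by GATA1, at position -63 from the start, and the complement of CACCC, the core of the motif bound by KLF1, at position -49.
HBM: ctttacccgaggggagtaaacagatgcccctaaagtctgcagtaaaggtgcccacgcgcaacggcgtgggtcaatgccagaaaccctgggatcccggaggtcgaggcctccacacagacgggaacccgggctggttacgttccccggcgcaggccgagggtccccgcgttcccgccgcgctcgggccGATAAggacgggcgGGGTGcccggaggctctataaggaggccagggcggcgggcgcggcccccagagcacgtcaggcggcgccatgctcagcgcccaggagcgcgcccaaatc
Of the 10 globin genes, HBM and HBD were matched in the RefSeq promoter table used. On either strand, GATAA was found in 22.7% and CACCC in 59.9% of all 35116 promoter windows of this length. CCAAT and TATAAA were not found in the HBM window.

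In the beta cluster, the fetal genes HBG1 (ENSG00000213934, chr11:5248269-5249857, minus strand) and HBG2 (ENSG00000196565, chr11:5253188-5505605, minus strand) encode gamma chains that are nearly identical, so the split of reads between them is uncertain. HBG1, with 1160 counts summed over DMSO and 2090 over FT671, was at 38.9, 38.1 and 33.6 CPM in DMSO and at 97.1, 103.6 and 96.4 CPM in FT671. The 3 FT671 libraries lay close together and far above DMSO. The log2 fold change was 1.41 (SE 0.09, edgeR adjusted p = 5.45e-08). HBG2 was at 26.2, 31.5 and 26.99 CPM in DMSO and at 84.4, 61.3 and 55.1 CPM in FT671. As for HBA1, FT671 replicate 1 was the highest. The log2 fold change of HBG2 was 1.22 (SE 0.14, edgeR adjusted p = 1.16e-05), just outside the stricter threshold, and 1.04 without FT671 replicate 1. Summed, the gamma globin reads increased with a log2 fold change of 1.34 (SE 0.09, edgeR adjusted p = 7.98e-08). HBG1 took 59.7%, 54.7% and 55.5% of them in DMSO and 53.5%, 62.8% and 63.7% in FT671, with overlapping groups (exact permutation p = 0.4, adjusted p = 0.571).

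HBD (ENSG00000223609, chr11:5232678-5243657, minus strand) encodes the delta chain of the minor adult hemoglobin A2. Its promoter is shown because HBD was the adult beta-like gene that was detected. The window (RefSeq, GRCh38.p14, chr11:5234434-5234733, minus strand) is written 5′ to 3′ along the gene. Capitals mark CCAAT at position -153 and the complement of GATAA at position -78.
HBD: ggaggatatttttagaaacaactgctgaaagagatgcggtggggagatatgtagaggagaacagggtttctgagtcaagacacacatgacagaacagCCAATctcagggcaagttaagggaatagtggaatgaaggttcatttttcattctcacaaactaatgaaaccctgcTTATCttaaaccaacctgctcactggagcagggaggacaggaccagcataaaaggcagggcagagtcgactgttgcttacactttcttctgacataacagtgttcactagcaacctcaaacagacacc
CCAAT was found in 34.6% and TATAAA in 11.5% of all promoter windows. The letters CACCC and TATAAA were not found in this window of HBD. HBD had 16, 17 and 4 counts in DMSO and 20, 30 and 62 in FT671, or 1.11, 1.56 and 0.739 CPM against 4.44, 5.41 and 5.54 CPM. The lowest FT671 library was above the highest DMSO library. The log2 fold change was 2.11 (SE 0.28, edgeR adjusted p = 2.88e-05), with a ratio of summed counts of 4.39 (95% counting interval 3.0 to 6.54), and 0.374% of tested genes had a larger rise. HBBP1, a pseudogene beside HBD that shares 88 exonic bases with it, was at 2.08, 1.37 and 2.03 CPM in DMSO and at 5.77, 3.07 and 2.95 CPM in FT671. Its log2 fold change was 1.01 (SE 0.32, edgeR adjusted p = 0.0164), and the call was lost without DMSO replicate 2 (edgeR adjusted p = 0.0682) and without FT671 replicate 1 (edgeR adjusted p = 0.0761).

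HBB (ENSG00000244734, chr11:5225464-5229395, minus strand), the adult beta chain, had 0 counts in all 6 libraries. Of its windows, 98.0% could be assigned to it alone, and the floor of 3 counts allows a level of up to 0.208 CPM in the deepest library. HBE1 (ENSG00000213931, chr11:5268345-5505652, minus strand), the embryonic beta-like chain, had 13, 6 and 2 counts in DMSO and 6 counts in each FT671 library. These were 0.900, 0.550 and 0.370 CPM against 1.33, 1.08 and 0.536 CPM, and the groups overlapped. HBE1 did not pass the filter, and the ratio of summed counts was 1.24 (95% counting interval 0.624 to 2.45). ENSG00000239920, which covers most of HBE1, had 10, 7 and 0 counts in DMSO and 4, 7 and 6 in FT671. Reads from the shared exons would enter neither gene, so the counts do not give the level of epsilon globin in these cells.

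Per length of annotated exon, HBQ1 had the highest level in DMSO, at 59.3 ± 11.9 RPKM (n = 3), followed by HBZ at 33.6 ± 4.86, HBG2 at 33.6 ± 3.39 and HBG1 at 25.1 ± 1.94 RPKM. HBZ and HBG2 did not differ beyond their spread. HBA1 followed at 4.49 ± 0.632 RPKM, then HBD at 0.985 ± 0.356, HBE1 at 0.631 ± 0.281 and HBA2 at 0.325 ± 0.0978 RPKM, of which HBE1 did not differ from either neighbour beyond the spread. In FT671, HBZ was first at 118.0 ± 8.34 RPKM, and HBQ1 (82.1 ± 10.5), HBG2 (79.6 ± 18.4) and HBG1 (67.5 ± 2.69) followed, of which HBG2 did not differ from either other gene beyond its spread. HBA1 was at 10.97 ± 4.09, HBD at 4.45 ± 0.522, HBA2 at 2.34 ± 0.362 and HBE1 at 1.02 ± 0.424 RPKM. This order depended on the length used. On a scale of CPM per 1000 assignable windows of 50 bases, added after the data were seen, HBG2 was first in DMSO at 103.1 ± 10.4, before HBQ1 at 82.2 ± 16.5, HBZ at 66.4 ± 9.60 and HBG1 at 60.9 ± 4.69, and no neighbours in this order differed beyond their spread. In FT671, HBG2 (244.3 ± 56.4) and HBZ (232.8 ± 16.4) did not differ beyond their spread on this scale, HBG1 was at 163.4 ± 6.51 and HBQ1 came last of these at 113.7 ± 14.5. HBA1 was at 22.1 ± 3.10 and 53.9 ± 20.1 in DMSO and FT671, HBD at 1.501 ± 0.542 and 6.79 ± 0.795, and HBA2 at 1.66 ± 0.499 and 12.0 ± 1.85.

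The balance between the genes of a cluster was compared within libraries, which does not depend on scaling between libraries. HBZ accounted for 54.4%, 50.4% and 53.0% of alpha-cluster counts in DMSO and for 69.6%, 73.3% and 72.02% in FT671. Over the same libraries the HBQ1 share decreased from 40.9%, 44.2% and 40.7% to 22.9%, 21.6% and 23.3%. Neither share overlapped between the groups. Both had an exact permutation p of 0.1, the smallest possible, and an adjusted p of 0.2. HBA1 and HBA2 together kept 5.47% ± 0.821 of the cluster in DMSO and 5.75% ± 1.51 in FT671 (n = 3 each, exact permutation p = 0.9). The direction of this difference turned when DMSO replicate 1 (-0.114 percentage points) or FT671 replicate 1 (-0.58 percentage points) was left out. Only 23.1% of HBA1 windows and 22.2% of HBA2 windows were unique, against 61.0% for HBZ and all for HBQ1. These are shares of assigned counts and can understate the adult alpha genes.

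In the beta cluster the fetal genes held nearly all assigned counts, 97.4% ± 0.674 in DMSO and 96.4% ± 0.428 in FT671 (n = 3 each, exact permutation p = 0.1, adjusted p = 0.2). The adult share, given by HBD alone, was 1.65%, 2.17% and 1.198% in DMSO and 2.37%, 3.16% and 3.52% in FT671, again without overlap and with an exact permutation p of 0.1. HBE1 made up 0.902% ± 0.389 and 0.561% ± 0.195 of the assigned counts (n = 3 each, exact permutation p = 0.3). Reads from its shared exons would not be counted, so the shares of this cluster and the alpha to beta ratio do not give the part of epsilon globin. The 2 clusters were counted at similar sums in both groups. The alpha cluster gave 1.10 times the counts of the beta cluster in DMSO and 1.11 times in FT671 (mean log2 ratio 0.14 ± 0.13 and 0.15 ± 0.16, n = 3 each, exact permutation p = 0.9). On counts per kb of exon the difference in this log2 ratio was -0.20, and it was also below 0 without DMSO replicate 3 (-0.07) and without FT671 replicate 3 (-0.08).

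**Figure D2:**
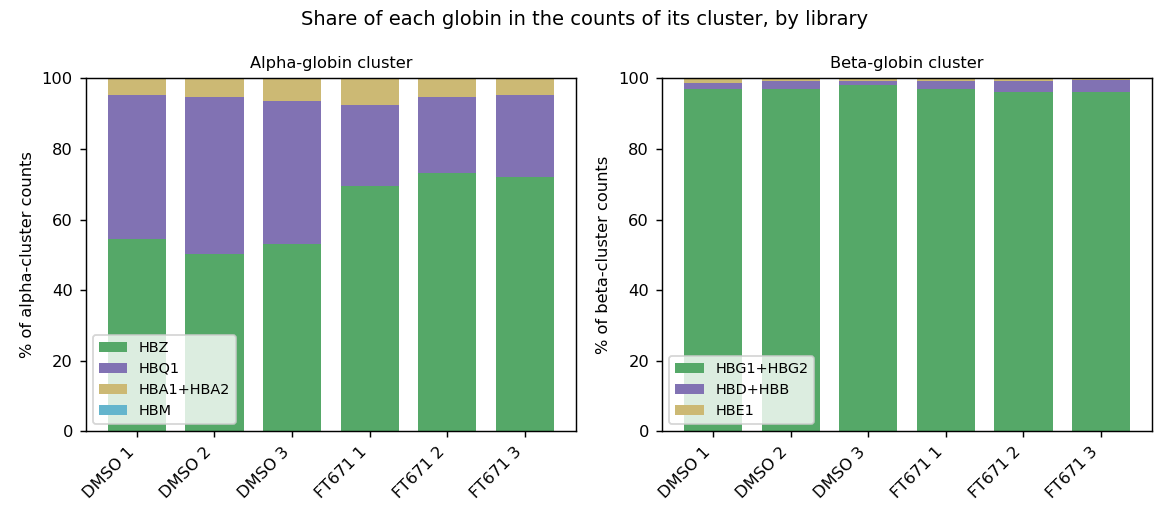
Share of each globin gene in the assigned counts of the alpha cluster (left axis, %) and the beta cluster (right axis, %), with 1 bar for each library. In the alpha cluster HBZ takes a larger and HBQ1 a smaller share in every FT671 library, and in the beta cluster HBG1 and HBG2 together hold over 96% of counts in every library.

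All 10 globin genes together were at 144.0, 156.6 and 123.1 CPM in DMSO and at 392.7, 343.0 and 354.6 CPM in FT671. They held 0.0142% ± 0.00157 of all counts in DMSO and 0.0358% ± 0.00263 in FT671 (n = 3 each), a ratio of 2.52. The embryonic genes HBZ and HBE1 summed to 39.6 and 137.9 CPM, the fetal genes to 65.1 and 165.9 CPM, the adult alpha genes to 4.02 and 11.1 CPM, the adult beta-like genes to 1.14 and 5.13 CPM and the minor alpha-like genes to 31.3 and 43.4 CPM in DMSO and FT671. Embryonic genes thus held between 26.7% and 29.6% of assigned globin counts in the DMSO libraries and between 36.8% and 40.2% in FT671. This embryonic share was nearly all HBZ, and no exonic window of HBE1 could be assigned to it alone in GENCODE 44. Epsilon globin reads from shared exons would not be counted, so these shares do not give the full balance of embryonic and fetal genes. How many such reads there were was not tested. The fetal share ranged from 44.4% to 49.2% in DMSO and from 42.7% to 48.1% in FT671, with overlapping groups.

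The other genes of globin regulation were taken from lists of activators, repressors, fetal RNA-binding proteins and genes of hemoglobin assembly. Among 15 activators and their partners, all of them tested, 10 were lower in FT671, 1 was higher and 4 were not called (all genes tested: 26.5% lower and 23.6% higher at 0.05), with a median log2 fold change of -0.52 against -0.01 over all genes tested. At 1e-05, 4 were lower, against 4.13% of all genes. TAL1, a partner of GATA1 at globin enhancers, was at 135.0, 143.1 and 140.7 CPM in DMSO and at 76.4, 68.7 and 72.7 CPM in FT671 and fell by 0.94 on the log2 scale (edgeR adjusted p = 3.98e-07). MAFG, a small MAF partner of NFE2, fell by 1.39 (edgeR adjusted p = 4.65e-08), CBFA2T3, a corepressor in the TAL1 complex, by 1.16 (edgeR adjusted p = 3.9e-08) and HIC2, which represses BCL11A, by 1.39 (edgeR adjusted p = 2.63e-08) on the log2 scale. GATA1, the main erythroid transcription factor, fell from 323.5, 311.2 and 256.0 CPM to 252.3, 248.4 and 229.8 CPM (log2 fold change -0.29, edgeR adjusted p = 0.0128), a call that was lost without DMSO replicate 1 (edgeR adjusted p = 0.0745) and without FT671 replicate 3 (edgeR adjusted p = 0.0798). NFE2L1, a related bZIP factor, also fell (-0.56, edgeR adjusted p = 1.64e-05), while GATA2 (0.17) and TCF3 (-0.15) were not called. GATA2 passed as higher with a correction for gene length (0.24, edgeR adjusted p = 0.0117) or GC content (0.25, edgeR adjusted p = 0.00225) and without DMSO replicate 2 (edgeR adjusted p = 0.0253), and TCF3 as lower without DMSO replicate 3 (edgeR adjusted p = 0.0134) or FT671 replicate 1 (edgeR adjusted p = 0.0371). KLF1, which binds the CACCC motif of the beta-globin promoter, and LMO2, the bridging protein of the TAL1 complex and the only activator called higher, were chosen after their values were seen. KLF1 was at 164.5, 161.5 and 125.9 CPM in DMSO and at 82.6, 90.9 and 84.0 CPM in FT671 (log2 fold change -0.82, edgeR adjusted p = 1.47e-05), and LMO2 was at 27.7 and 36.5 CPM on average (0.37, edgeR adjusted p = 0.012).

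Of 26 listed repressors and their cofactors, 25 were tested, of which 12 were lower, 3 higher and 10 not called (all genes tested: 26.5% lower, 23.6% higher), with a median log2 fold change of -0.18. BCL11A, the main repressor of gamma globin, was at 0.138 CPM in DMSO replicate 1, under the floor of 3 counts, and had 0 counts in the other 5 libraries. ZBTB7A, which represses gamma globin independently of BCL11A, was at 107.9, 91.7 and 89.8 CPM in DMSO and at 43.97, 53.4 and 51.4 CPM in FT671 and fell by 0.96 on the log2 scale (edgeR adjusted p = 4.05e-06). ZFPM1, the GATA1 cofactor FOG1, fell by 1.199 (edgeR adjusted p = 5.66e-06) and POGZ, a zinc finger protein, by 0.89 (edgeR adjusted p = 3.1e-06) on the log2 scale. MYB fell by 0.35 (edgeR adjusted p = 0.00245) and the demethylase gene KDM1A by 0.18 (edgeR adjusted p = 0.0348) on the log2 scale. The KDM1A call was lost with DESeq2 (edgeR adjusted p = 0.0613 with its size factors), with the correction for gene length and when any 1 library other than DMSO replicate 3 was left out (edgeR adjusted p between 0.0503 and 0.165). DNMT1 (0.13), GATAD2A (-0.17) and EIF2AK1 (-0.07) were not called. DNMT1 passed as higher with a correction for gene length (0.29, edgeR adjusted p = 0.00127) or GC content (0.20, edgeR adjusted p = 0.0149) and without DMSO replicate 3 (edgeR adjusted p = 0.0373). GATAD2A passed as lower with scaling by library totals (edgeR adjusted p = 0.0200) and without DMSO replicate 1 (edgeR adjusted p = 0.0444) or 3 (edgeR adjusted p = 0.0180). The repressors called higher, chosen after their values were seen, were PRMT5 (log2 fold change 0.58, edgeR adjusted p = 1.21e-05), EHMT2 (0.34, edgeR adjusted p = 8.48e-04) and BACH1 (0.29, edgeR adjusted p = 0.0155). BACH1 lost its call without DMSO replicate 1 or 2 or FT671 replicate 2 (edgeR adjusted p between 0.0614 and 0.104).

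Of the 5 fetal RNA-binding proteins, 4 were tested, and IGF2BP3 was the one called, with a fall of 0.70 on the log2 scale (edgeR adjusted p = 2.63e-05). This 1 of 4 was near the 26.5% of all genes tested that were lower. LIN28B (-0.05), IGF2BP1 (-0.10) and IGF2BP2 (0.08) were not called, and LIN28B and IGF2BP1 changed sign under the correction for gene length. Among 12 genes of hemoglobin assembly, alpha-globin mRNA stability and heme synthesis, 3 were higher, 2 lower and 7 not called, with a median log2 fold change of 0.03. The share called higher was near the 23.6% of all genes tested, and the share called lower was under their 26.5%. AHSP, the chaperone of free alpha chains, named here after its values were seen, was at 2.98, 3.39 and 2.77 CPM in DMSO and at 4.89, 5.41 and 5.90 CPM in FT671 (log2 fold change 0.83, edgeR adjusted p = 0.00457). The other genes called higher were ATRX (0.42, edgeR adjusted p = 0.0173), a chromatin remodeller whose loss reduces alpha-globin expression, and UROS (0.37, edgeR adjusted p = 0.0401), a heme synthesis enzyme. PCBP2, which binds the alpha-globin mRNA, fell by 0.23 on the log2 scale (edgeR adjusted p = 0.0352). The calls of ATRX, UROS and PCBP2 depended on single libraries. Leaving out 1 library raised the edgeR adjusted p to 0.0881 for ATRX (DMSO replicate 1, and also DMSO replicate 2 and FT671 replicate 3), 0.137 for UROS (FT671 replicate 1, and also DMSO replicate 3 and FT671 replicate 2) and 0.191 for PCBP2 (DMSO replicate 2, and also DMSO replicate 1 and FT671 replicates 2 and 3). The correction for gene length also ended the PCBP2 call (edgeR adjusted p = 0.326). PCBP1 (0.03), UROD (0.03) and FECH (-0.18) were not called. Of the globins outside the clusters, MB, NGB and ADGB had 0 counts in all libraries, and CYGB was at up to 0.183 CPM. Beside HBBP1, the non-coding genes of the clusters did not pass the filter: HBAP1 had 0 counts, and HBZP1 and BGLT3 were at up to 0.222 and 0.268 CPM.

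**Figure D3:**
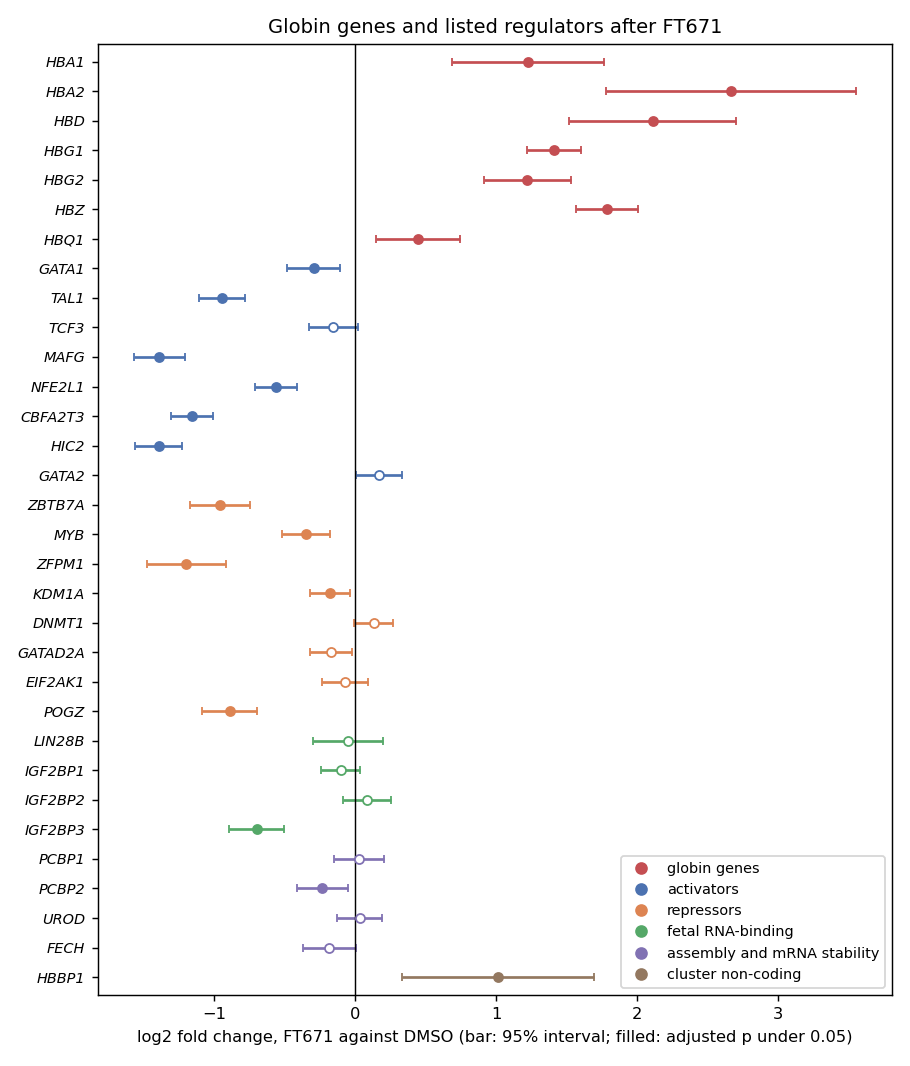
Log2 fold change of FT671 against DMSO (x axis, bars are 95% intervals of the edgeR fit) for the 7 globin genes tested and the named genes of each list (colours); filled points have an adjusted p under 0.05. The globin genes lie right of 0, whereas most named activators and repressors that were called lie left of it.

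The erythroid label of the cells was checked with 18 erythroid marker genes, which all passed the filter. Their summed level was lower in FT671, at 2393 to 2425 CPM in DMSO and 2028 to 2052 CPM in FT671, with 10 lower, 3 higher and 5 not called (all genes tested: 26.5% lower, 23.6% higher). GATA1, TAL1, KLF1 and NFE2, all called lower, were also counted among the activators. AHSP and ALAS2 were also counted among the genes of hemoglobin assembly and heme synthesis, so these counts are not separate. EPOR, the erythropoietin receptor gene, fell by 1.21 on the log2 scale (edgeR adjusted p = 1.18e-05), whereas ANK1 of the membrane skeleton and AHSP were among the 3 called higher. ANK1 lost its call without DMSO replicate 1, FT671 replicate 1 or FT671 replicate 3 (edgeR adjusted p up to 0.0881). These genes were named after their values were seen. Of 8 megakaryocyte markers, 1 was tested and not called, GP9, GP1BB and PF4 had 0 counts, and the sum was 20.3 to 21.6 CPM in DMSO and 16.1 to 17.5 CPM in FT671. Of 8 granulocyte or monocyte markers, 2 were tested and both were higher, LYZ (log2 fold change 0.49, edgeR adjusted p = 2.56e-04) and PRTN3 (1.05, edgeR adjusted p = 0.00309, and 0.0564 without FT671 replicate 3), and ELANE, S100A8 and S100A9 had 0 counts. Their sum was 54.0 to 56.6 CPM in DMSO and 76.2 to 81.0 CPM in FT671. Lymphocyte markers summed to 18.7 to 23.5 CPM and 26.5 to 32.9 CPM, with CD3D (0.44, edgeR adjusted p = 0.00988) called and CD2 and MS4A1 at 0 counts. Fibroblast markers summed to 2.38 to 2.91 CPM and 2.59 to 2.89 CPM, with COL3A1 at 0 counts and none called. The part of these shifts in the globin values was not tested.

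Genes within 100 kb of the outermost globin genes were called in both directions, 4 of 15 tested higher and 3 lower, near the 23.6% higher and 26.5% lower of all genes tested. Beside the alpha cluster, 8 of 18 listed genes were tested, of which 2 were higher, 1 lower and 5 not called. NPRL3, whose introns hold the main alpha-globin enhancers, was at 170.8, 175.4 and 173.0 CPM in DMSO and at 191.2, 185.5 and 181.7 CPM in FT671 and was not called (log2 fold change 0.10, edgeR adjusted p = 0.217), but passed with a correction for gene length (0.22, edgeR adjusted p = 0.00987) or GC content (0.18, edgeR adjusted p = 0.028). LUC7L, a splicing factor gene downstream of HBQ1, was at 22.7, 22.9 and 22.6 CPM in DMSO and at 43.5, 44.9 and 43.9 CPM in FT671 (log2 fold change 0.96, edgeR adjusted p = 2.95e-06). ARHGDIG was the other gene called higher, with 4, 5 and 0 counts in DMSO and 12, 7 and 19 in FT671, and it passed the filter only through the FT671 libraries. FAM234A was lower (-0.27, edgeR adjusted p = 0.0156). The FAM234A call was lost with the correction for gene length (edgeR adjusted p = 0.131) or GC content (0.0612) and without DMSO replicate 2, FT671 replicate 1 or FT671 replicate 3 (edgeR adjusted p up to 0.0774). POLR3K (0.04), SNRNP25 (0.10), RHBDF1 (0.12) and MPG (0.20) were not called, and MPG passed with a correction for GC content (0.28, edgeR adjusted p = 0.00467). Beside the beta cluster, 7 of 41 listed genes were tested, with 2 higher, 2 lower and 3 not called. The window here ends 100 kb past base 5505652, the end of the distal exon of HBE1, whose other exons end at 5281951. OR51I2, OR52D1 and TRIM6, which start at 5449323, 5488685 and 5596109, are thus near that distal exon only. Besides HBBP1, the olfactory receptor gene OR51B5 was higher (0.31, edgeR adjusted p = 0.0209), a call lost without DMSO replicate 1 or 2 or FT671 replicate 2 or 3 (edgeR adjusted p up to 0.122). Its annotated exons share 84 bases with the distal exon of HBE1 and 37 with the upstream exon of HBG2. OR51B4 (-0.57, edgeR adjusted p = 0.00126) and TRIM6 (-1.001, edgeR adjusted p = 5.49e-05) were lower, and OR51B2 (-0.22), OR51I2 (0.75) and OR52D1 (0.42) were not called, and OR51I2 passed without DMSO replicate 2 (edgeR adjusted p = 0.0469). Of the 15 neighbours tested, 4 were higher in all. This count fell to 2 of 14 tested without DMSO replicate 1, without DMSO replicate 2 or without FT671 replicate 3.

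The genes whose log2 CPM followed the summed globin counts most closely over the 6 libraries were PLPPR2 (Pearson r = 0.9993), GAL (0.9992), CRYAB (0.9991), SH2D2A (0.9991) and TEX19 (0.9987). GAL, which encodes the neuropeptide precursor of galanin, was at 40.0, 45.8 and 33.6 CPM in DMSO and at 174.6, 147.6 and 162.1 CPM in FT671. CRYAB, a small heat shock protein, rose from a mean of 1.60 to 9.79 CPM, TEX19 from 3.01 to 16.7 CPM, PLPPR2 from 23.5 to 49.0 CPM and SH2D2A from 30.2 to 64.9 CPM. The 6 points of such a correlation form 2 separate groups, and 952 of the 10756 genes with a mean of at least 5 CPM had an r above 0.95, so these values describe the shared split between the groups.

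The log2 fold changes of the globin genes tested stayed above 0 under the alternatives, while their size moved with the processing. HBG1 ranged from 1.29 to 1.49, HBG2 from 1.04 to 1.36, HBD from 1.65 to 2.38, HBA1 from 0.946 to 1.42, HBA2 from 2.56 to 2.90 and HBQ1 from 0.334 to 0.602 over the alternatives in which each was tested. HBQ1, without FT671 replicate 1 or 3, was the only globin gene that lost its call at 0.05.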

How the data were processed

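RNA-seq libraries of K562 cells after 48 h in DMSO or in 10 μM FT671 were compared, 3 in each group, as the sample labels give them. According to the study's methods, total RNA was depleted of ribosomal RNA (KAPA RNA HyperPrep with RiboErase) and sequenced paired-end, and STAR in two-pass mode was used to align the reads to hg38. The authors deposited 1 raw read count per gene and library, without normalization. The STAR version, annotation release and strand setting are not given in the sources used here. The 6 ChIP-seq samples of the series were not analysed here.

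Genes were matched to GENCODE 44 by Ensembl identifier (60295 of 60609, the other 314 with 0.0609% of counts were kept). After edgeR's filterByExpr, 13895 genes were tested with TMM scaling and the quasi-likelihood test (edgeR 4.0.16, R 4.3.3), two-sided and without covariates, and p-values were adjusted over all of them by Benjamini-Hochberg. Calls are at 0.05, and at 1e-05, the threshold of the study's methods. The SE is the log2 fold change divided by the square root of F. CPM used TMM-scaled totals and RPKM the union exon length. Shares within libraries were compared by exact permutation tests over 20 assignments (SciPy 1.17.1), adjusted over 10 balances. Correlations used a prior count of 2. The fits were tested on simulated data with known fold changes. No 2 replicates agreed within sampling noise (chi-square per degree of freedom 2.07 to 8.73).

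The globin genes and all lists were chosen with earlier results of these data known. Named were the 10 globin genes, list genes called at 1e-05 and up to 5 per list with the highest mean CPM, tested neighbours within 100 kb, genes overlapping a globin gene, and the 5 genes most alike; others are said to be named after their values were seen. A few genes of the lists are counted but not reported here by name. Alternatives were other scalings, DESeq2 1.42.0, other filters, corrections for length and GC content (loess, span 0.3), the replicate number as a block, leaving out each library, thinning to the smallest total and summing near-identical copies. Levels per assignable window and the alternatives for neighbours were added after the data were seen.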

Additional observations from a re-analysis of the deposited data

How the results depend on the processing

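The 7 globin genes tested kept their direction under every alternative in which they were tested, and 6 of them their call at 0.05. HBA2 was tested in 15 and HBD in 18 alternatives, against 19 for HBZ. Both passed the filter only through the FT671 libraries, so their direction in the filtered fits was partly set by that choice. At an adjusted p of 1e-05, edgeR called 2 of 7 globin genes higher in place of 7. Of 57 regulators tested, 0 were higher in place of 8 and 7 lower in place of 25. Regulators here means all lists other than the globin genes and the cell type markers, with heme synthesis genes and HBBP1 included. HBBP1 is also counted among the neighbours. Of 15 neighbours tested, 1 was higher in place of 4 and 0 lower in place of 3. Among all genes tested, 1.79% were higher and 4.13% lower at 1e-05, against 23.6% and 26.5% at 0.05. DESeq2 called 7 of 7 globin genes higher and 0 lower (all 13895 genes tested: 3007 higher and 3121 lower). Without the filter edgeR called 7 of 9 higher and 0 lower (all 31316 genes tested: 3049 higher and 3994 lower). Leaving out 1 library gave 5 to 7 globin genes and 2 to 4 neighbours called higher. The lowest globin count, without FT671 replicate 3, was 5 of 6 tested, with 2522 of all 13315 genes tested higher. Thinned to the smallest total, 2 of 13 neighbours tested were higher (2400 of all 12737 genes tested). With a GC correction 13 of 57 regulators tested were called higher, and 4052 of all 13895 genes tested. Among regulators that were not called, the correction for gene length turned EIF2AK1 (0.0187), LIN28B (0.0615), IGF2BP1 (0.0485) and PCBP1 (-0.0895), scaling by library totals turned PCBP1 (-0.00417) and UROD (-0.00121), and leaving out 1 library moved LIN28B from -0.164 to 0.078, PCBP1 from -0.0556 to 0.118 and UROD from -0.0477 to 0.0753 on the log2 scale. Among neighbours that were not called, POLR3K turned with the correction for gene length (-0.0654) and ranged from -0.111 to 0.184, and OR52D1 from -0.0106 to 0.77, over the libraries left out. Of 777 values of 52 named genes other than the globin genes, 686 kept direction and call, 45 lost and 28 gained a call, and 18 changed sign. On counts per kb of exon the difference of the alpha to beta log2 ratio was -0.198, and over the libraries left out it ranged from -0.075 to 0.0856. The difference in the share of HBA1 and HBA2 ranged from -0.58 to 0.837 and that of HBM from 0 to 0.0227 percentage points. The cause of these changes was not tested.

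The replicate numbers were not taken to pair the libraries, since deviations of same-numbered libraries correlated at 0.115, -0.0605 and 0.14 and not every library correlated best with its own number. With the replicate number as a block, 7 of 7 globin genes were higher (HBZ 1.80, HBG1 1.42, HBQ1 0.469). Of 57 regulators 8 were higher and 26 lower (GATAD2A gained a call, edgeR adjusted p = 0.0448), and 6 of 15 neighbours were higher. Among all 13895 genes tested, 3374 were higher and 3761 lower with this block. With length correction and the block, 14 of 57 regulators were higher (3944 of all 13895 genes tested). EIF2AK1 (0.0146), LIN28B (0.0511), IGF2BP1 (0.0487), PCBP1 (-0.0884) and POLR3K (-0.0270) changed sign in this fit. With GC correction and the block, 7 of 15 neighbours were higher (4045 of all 13895 genes tested). For the shares within libraries, 3 pairs cannot give a p under 0.25 in the exact sign-flip permutation, which the HBZ difference of 19.1 percentage points had. Depth limits HBA2, HBD, HBE1 and HBM, with at most 37 counts summed over the DMSO libraries.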
